A study of Mus musculus with 6 samples.

Results

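The Hox genes of dermal fibroblasts were examined in nipple-like ventral skin and in ordinary ventral skin of the mouse. The genes were all those whose symbol names one of the clusters Hoxa, Hoxb, Hoxc or Hoxd and a paralogue number. Of the 39 mouse Hox genes in RefSeq, 36 had a probe set of their own on the array, out of 22180 named genes in all. They comprised 9 Hoxa, 10 Hoxb, 9 Hoxc and 8 Hoxd genes. The other 3 are left out of the single-gene results. The rule chose genes by name. For a gene with several probe sets it took the set with the highest mean over all arrays, which applied to Hoxb5.

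Cells came from female mice aged 8 to 12 weeks on a C57BL/6 background. The wild-type (WT) group held 3 samples of ventral skin, which one set of labels describes as being in telogen, the resting phase of the hair cycle. The other group held 3 samples of nipple-like ventral skin from littermates of the K14-PTHrP (KrP) line, in which basal keratinocytes make parathyroid hormone-related protein from a keratin 14 promoter, while the cells measured were fibroblasts. The descriptions of KrP 2 and KrP 3 name another keratin, while their genotypes name K14. Fibroblasts were sorted as CD140-positive cells that lacked CD31, CD45, CD117 and CD49f, after cells had been pooled. The labels name 3 mice as the source and do not say whether that is for each sample, so the p-values reflect the spread among the arrays, part of which may be technical. The labels give ventral skin for both groups without a level along the trunk.

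Hox genes encode homeodomain transcription factors that set regional identity along the body. They lie in clusters in which gene order follows the order of expression from head to tail, so that low numbers are used from the anterior end and high numbers are added toward the tail and the tips of the limbs. Genes with the same number in different clusters are paralogues that descend from a common ancestral gene. Adult fibroblasts keep a record of their place of origin in the Hox genes they express, and Hox9 paralogues take part in development of the mammary gland. Transcripts without a protein, among them the miR-10 and miR-196 precursors, lie inside the clusters.

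Each sample was hybridised to 1 array, and the values are log2 expression levels normalised by the authors. Array medians lay between 6.34 and 6.43, and correlations between arrays over all probe sets ranged from 0.986 to 0.994 within groups and from 0.975 to 0.989 across groups. Background was read from 1105 olfactory receptor genes, a family used mainly in the nose. A gene was called above background in a group when all 3 arrays exceeded the 95th percentile of those genes, which lay between 6.20 and 6.36. Log2 differences are KrP minus WT, from group means, and tests are limma fits over all 22180 genes with Benjamini-Hochberg adjustment at a threshold of 0.05.

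The cluster medians differed in sign. All 9 Hoxa genes had a lower mean in KrP fibroblasts, with a median log2 difference of -0.48, while the median was 0.36 for Hoxb, 0.29 for Hoxc and 0.15 for Hoxd, beside 0.01 over all genes. The Hoxc median rests on single arrays, at 0.05 without WT 2 or without KrP 1 and 0.12 without both arrays numbered 2. By median size, the differences were larger in the middle of the clusters, taken as numbers 5 to 10. The planned grouping was by cluster and paralogue number and set no such range. Hoxc11 (-0.70), Hoxd11 (0.39) and Hoxb3 (0.36) lie outside it. The 18 genes with paralogue numbers 5 to 10 had a median size of difference of 0.52, against 0.08 for the 10 genes numbered 1 to 4, 0.14 for the 8 genes numbered 11 to 13 and 0.14 over all genes. In that middle range all 5 Hoxa genes were lower in mean, and all 5 Hoxb, all 5 Hoxc and all 3 Hoxd genes were higher. These are descriptions of medians, with no test of the clusters as sets.

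**Figure D1:**
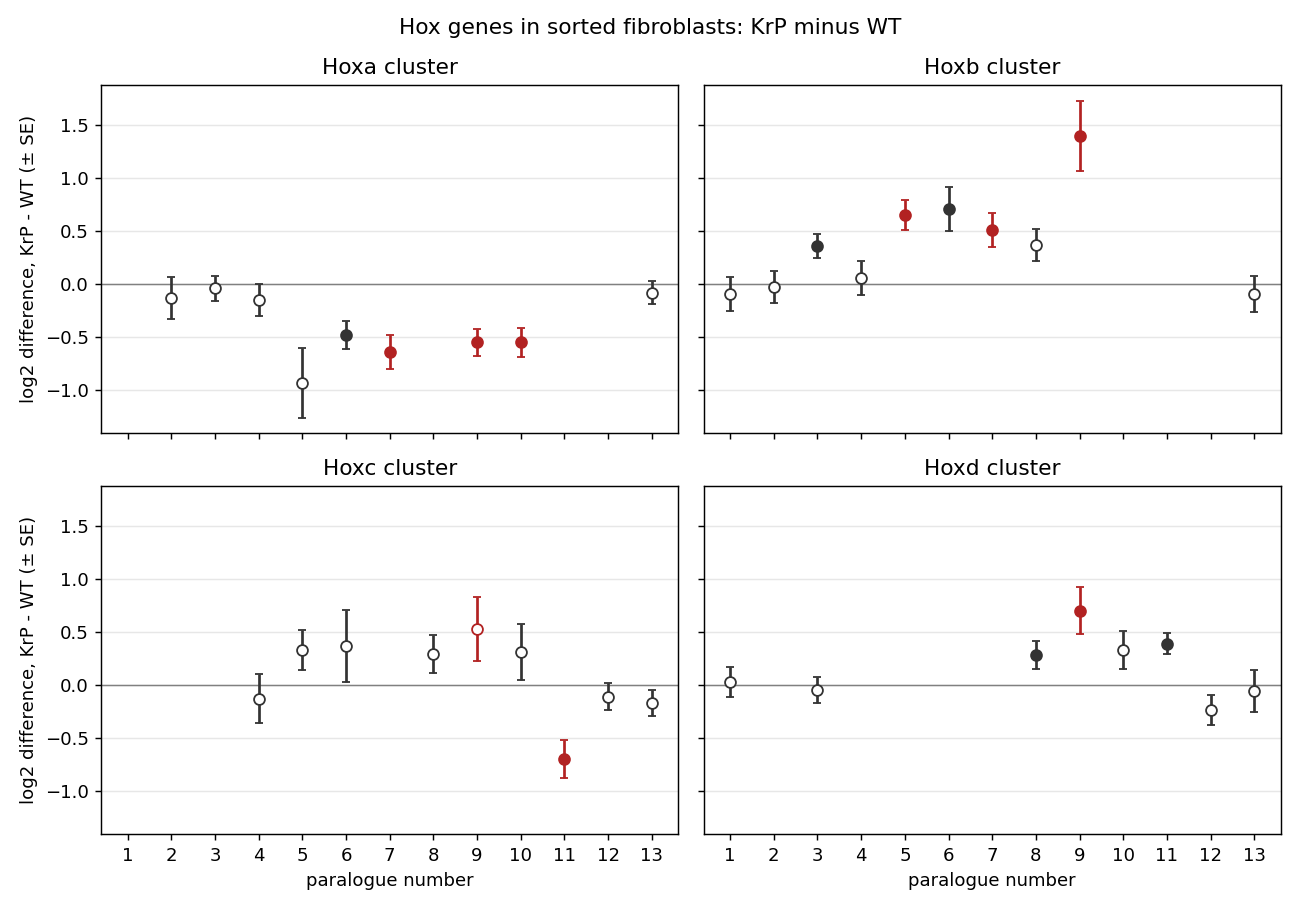
Log2 difference of each Hox gene, KrP minus WT, with its standard error, against the paralogue number in the 4 clusters. Filled points are genes whose WT and KrP arrays do not overlap, and red points are genes called with the replicate number as a block. Hoxa5 to Hoxa10 lie below 0 and Hoxb3 to Hoxb9 above it, with Hoxb9 highest at 1.40 and Hoxc11 at -0.70.

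No single Hox gene passed the unpaired limma test, in which 2.18% of all genes were called, 1.15% as higher and 1.03% as lower in KrP samples. The smallest adjusted p among the Hox genes was 0.0644, for Hoxb5, whose probe sets disagree as given below. At an unadjusted p under 0.05 there were 14 of 36 Hox genes (38.9%), against 16.0% of all genes. No label pairs the samples, but same-numbered arrays deviated together in these same values (correlations of 0.414, 0.350 and 0.120). Arrays of different number gave -0.385 to 0.067, so the value for number 3 is not far above that range. As deviations from a group mean are tied to each other, these correlations are not independent. With the number read as a pairing and used as a block, limma called 9 of 36 Hox genes (25%), against 8.35% of all genes. By direction 5 were higher and 4 lower, against 5.33% and 3.02% of all genes. All calls with the block depend on that reading. The WT and KrP arrays did not overlap for 13 Hox genes (36.1%), against 20.3% of all genes. Of these, 8 were higher, against 11.4% of all genes, and 5 lower, against 8.93%. The 9 genes called with the block alone were Hoxa7, Hoxa9, Hoxa10 and Hoxc11, which were lower, and Hoxb5, Hoxb7, Hoxb9, Hoxc9 and Hoxd9, which were higher. In 8 of them the groups did not overlap. The adjusted p-values of single genes below come from limma, unpaired first and then with the block.

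In the Hoxa cluster, the largest differences form an unbroken run of Hox genes from Hoxa5 to Hoxa10. The non-coding gene Hoxaas3, between Hoxa6 and Hoxa7, had a difference of -0.12, with overlap (adjusted p = 0.639, or 0.572 with the block). Hoxa9, a factor also known for its part in blood stem cells, had log2 values of 7.81, 7.41 and 7.53 in WT 1, 2 and 3 and of 7.08, 6.99 and 7.04 in KrP 1, 2 and 3. Every KrP array lay below every WT array, and the KrP arrays were close together (SD 0.05, n = 3). The difference was -0.55 ± 0.13 SE (1.46-fold lower; adjusted p = 0.0875, or 0.0323 with the block). Hoxa7 had WT values of 7.52, 6.93 and 7.17 and KrP values of 6.60, 6.50 and 6.59. It too was lower on every KrP array, by 0.64 ± 0.16 SE in mean (adjusted p = 0.0883, or 0.0289 with the block).

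Hoxa10, a factor of the lumbar region and the uterus, had WT values of 7.06, 6.62 and 6.68 and KrP values of 6.32, 6.17 and 6.21. Its difference of -0.55 ± 0.14 SE (adjusted p = 0.0959 unpaired and 0.03 with the block) took it from above background in WT to the background level in KrP. Hoxa6 had 7.46, 7.09 and 7.41 in WT and 6.80, 6.91 and 6.82 in KrP, again without overlap (difference -0.48 ± 0.13 SE; adjusted p = 0.121, or 0.0718 with the block). Hoxa5, known for its role in lung and thoracic development, had the largest difference of the cluster and the widest spread in WT. Its WT values of 7.34, 5.84 and 6.66 spanned the background level, and its KrP values of 5.67, 5.49 and 5.90 all lay under it. WT 2 overlapped the KrP range, and the difference was -0.93 ± 0.33 SE (adjusted p = 0.219, or 0.0608 with the block).

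The ends of the Hoxa cluster differed little. Hoxa2, Hoxa3, Hoxa4 and Hoxa13 had differences between -0.15 and -0.04 with adjusted p from 0.706 to 0.926. By their own probe sets, Hoxa2 and Hoxa3 were not above background in either group. A probe set shared by Hoxa3 and 5730446D14Rik lay above background on every array, from 6.87 to 7.14. Its mean was 7.02 in both groups. A probe set shared by Hoxa7 and the non-coding gene Mira had a difference of -1.12, with WT values of 7.94, 6.83 and 7.58 and KrP values of 6.66, 6.31 and 6.01. It was not part of the fit over single genes, but its arrays did not overlap either. The pair of probe sets shared by Hoxa11 and its antisense gene had differences of -0.26 and -0.11.

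The Hoxb cluster went the other way, and Hoxb9, which acts in the thorax and in mammary development, had the largest difference of all Hox genes. Its log2 values were 8.71, 8.49 and 8.93 in WT and 10.73, 9.28 and 10.31 in KrP arrays. All KrP arrays lay above all WT arrays, with KrP 2 nearest to the WT range. The difference was 1.40 ± 0.33 SE, or 2.63-fold (adjusted p = 0.0836, or 0.0142 with the block). Hoxb5 had values of 7.25, 7.07 and 7.29 in WT and of 8.08, 7.69 and 7.78 in KrP, also without overlap. It was 1.57-fold higher, with a difference of 0.65 ± 0.14 SE (adjusted p = 0.0644 unpaired and 0.0197 with the block). RefSeq places the antisense gene Hoxb5os over Hoxb5, and a second probe set named for Hoxb5 had a difference of 0.08, so the probe sets of this gene disagree. That second set was the higher one in WT (mean 7.39 against 7.20) and the lower one in KrP (7.47 against 7.85). The set used thus had the highest mean over all arrays only through its KrP values. With the mean of the probe sets, the difference was 0.36 (limma adjusted p = 0.189, unpaired).

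Hoxb6 had WT values of 6.56, 6.55 and 6.41 and KrP values of 7.65, 6.73 and 7.27 (difference 0.71 ± 0.21 SE; adjusted p = 0.153, or 0.0597 with the block). Hoxb7 had 6.11, 5.79 and 6.06 in WT and 6.74, 6.22 and 6.54 in KrP (difference 0.51 ± 0.16 SE; adjusted p = 0.159, or 0.0304 with the block). For both genes the groups did not overlap and KrP 2 was the lowest KrP array, and Hoxb7 was not above background in either group. Hoxb8 was at 6.22, 6.19 and 6.39 in WT and at 6.85, 6.36 and 6.69 in KrP, where KrP 2 reached into the WT range (difference 0.37 ± 0.15 SE; adjusted p = 0.267, or 0.129 with the block). Hoxb3 had 6.74, 6.82 and 6.81 against 7.28, 7.01 and 7.15, a difference of 0.36 ± 0.11 SE without overlap (adjusted p = 0.174, or 0.111 with the block). Hoxb1, Hoxb2, Hoxb4 and Hoxb13, at the ends of the cluster apart from Hoxb4, had differences between -0.09 and 0.06, with adjusted p from 0.848 to 0.953. The probe set shared by Hoxb3 and Hoxb2 had a difference of -0.02, with means of 6.51 in WT and 6.49 in KrP, so it did not rise with the Hoxb3 set. A set shared by Mir10a and Hoxb4 lay under background, with a difference of -0.19.

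**Figure D2:**
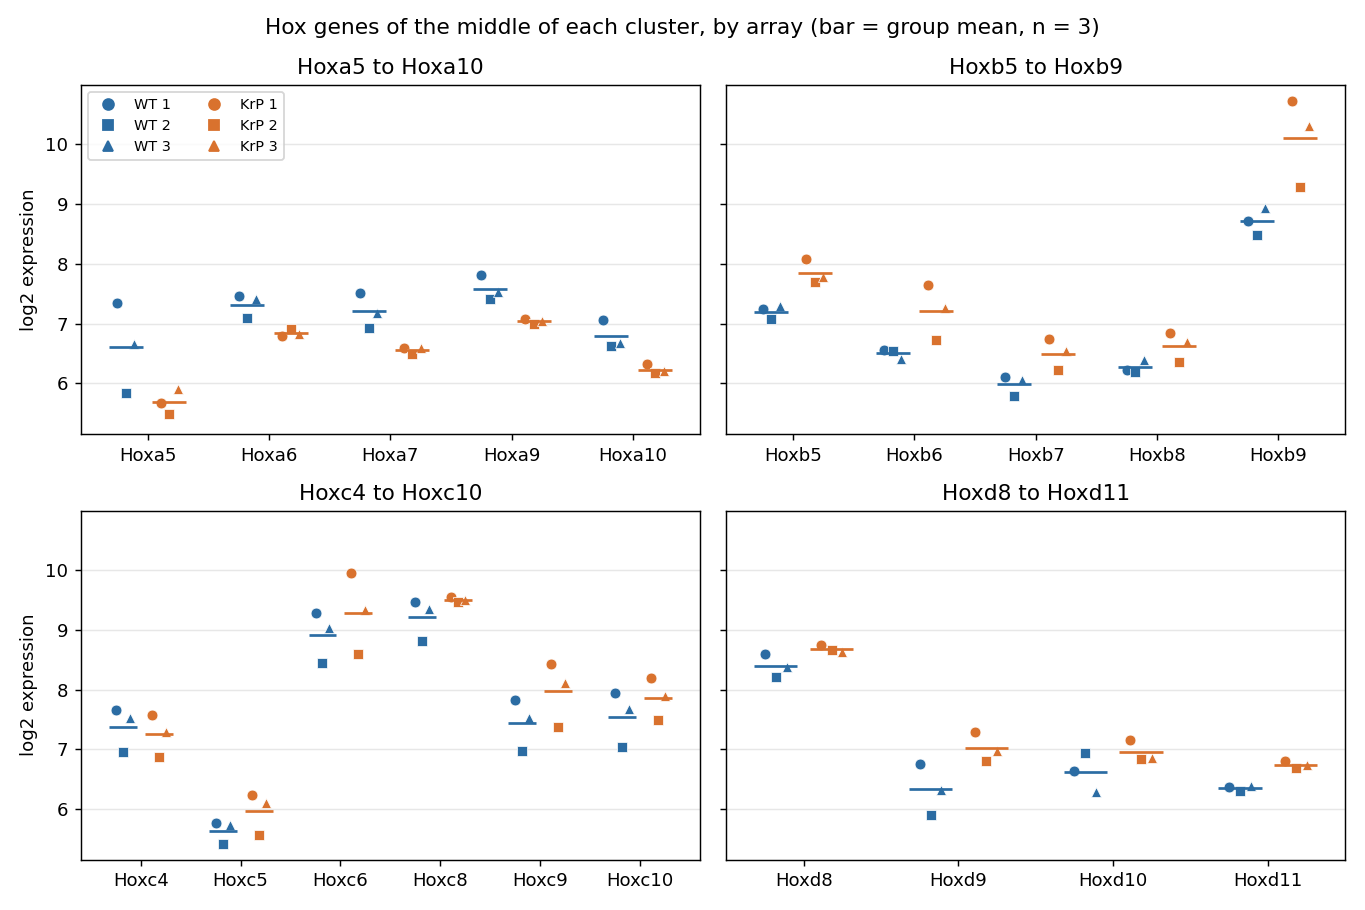
Log2 expression of Hox genes from a run in each cluster on each of the 6 arrays, with circles, squares and triangles for replicates 1, 2 and 3 (WT blue, KrP orange) and bars for group means. The runs are Hoxa5 to Hoxa10, Hoxb5 to Hoxb9, Hoxc4 to Hoxc10 and Hoxd8 to Hoxd11, and were not part of the planned grouping. Hoxa6 to Hoxa10 lie lower on every KrP array, Hoxb9 runs from 8.49 to 8.93 in WT and from 9.28 to 10.73 in KrP, and Hoxc4 to Hoxc10 have the array numbered 2 lowest in both groups.

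Transcripts without a protein next to Hoxb9 rose with it. In RefSeq the long non-coding gene Gm53 and the miRNA gene Mir196a-1 are neighbours between Hoxb13 and Hoxb9. Gm53 had values of 7.78, 7.40 and 7.60 in WT and of 8.87, 8.27 and 8.61 in KrP, and rose 1.99-fold (difference 0.99 ± 0.18 SE; adjusted p = 0.0352, or 0.00436 with the block). Mir196a-1 had 6.85, 6.17 and 6.31 in WT and 8.17, 7.33 and 7.54 in KrP, and rose 2.36-fold from a WT level that was not above background (difference 1.24 ± 0.25 SE; adjusted p = 0.04996, or 0.00190 with the block). Every KrP array was above every WT array for both genes. The call of Gm53 ended without WT 1 (adjusted p = 0.0669), WT 2 (0.104), WT 3 (0.160), KrP 1 (0.0697) or KrP 3 (0.184). That of Mir196a-1 ended without the same 5 arrays (0.0545, 0.145, 0.217, 0.0802 and 0.184), without the trend (0.0546), with quantile normalisation (0.0513) and with median centring (0.0592).

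Whether the Mir196a-1 probe set reads the mature miRNA or its longer precursor was not tested. Mir196a-1 and Mir196a-2, which lies between Hoxc10 and Hoxc9, give the same mature miR-196a, and the hairpins around it differ in sequence. They are shown here because only the Hoxb copy was called. Mir196a-2 had WT values of 4.40, 4.69 and 4.54 and KrP values of 4.51, 4.13 and 4.67, under background on all arrays, and a difference of -0.11 (adjusted p = 0.814). The difference between the copies was not tested. In the hairpins from RefSeq (GRCm38.p6, plus strand, 5′ to 3′) the mature miR-196a-5p stands in capitals, at chr11:96265164-96265265 for Mir196a-1 and at chr15:102973350-102973434 for Mir196a-2.
Mir196a-1: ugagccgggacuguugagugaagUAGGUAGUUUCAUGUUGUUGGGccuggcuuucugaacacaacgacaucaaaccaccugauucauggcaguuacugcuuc
Mir196a-2: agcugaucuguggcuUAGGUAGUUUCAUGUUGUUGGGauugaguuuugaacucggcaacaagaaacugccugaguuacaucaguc

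The mature miRNAs of the clusters fall into families by the seed, bases 2 to 8, printed in capitals. The miR-196 family holds a copy in each of Hoxa, Hoxb and Hoxc and is known to act on Hox messages such as Hoxb8, and the miR-10 family lies beside the genes numbered 4.
mmu-miR-196a-5p: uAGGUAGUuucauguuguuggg
mmu-miR-196b-5p: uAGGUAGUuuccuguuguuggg
mmu-miR-10a-5p: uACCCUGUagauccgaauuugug
mmu-miR-10b-5p: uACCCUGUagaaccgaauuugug
The Mir10b probe set, in the Hoxd cluster, lay under background in both groups (WT mean 3.63, KrP mean 3.43; adjusted p = 0.668). Of the 22 non-coding genes listed for the clusters, 8 had a probe set of their own, and Gm53 and Mir196a-1 were the called ones, both with and without the block. Hotair, a long non-coding RNA of the Hoxc cluster, lay under background in both groups, at 5.95 and 5.85 in mean.

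From Hoxc4 to Hoxc10 the arrays of a group lay far apart, and no gene of the run separated the groups. Hoxc9, a thoracic factor, had values of 7.83, 6.98 and 7.52 in WT and of 8.43, 7.37 and 8.11 in KrP. The groups overlapped, yet each KrP array was above the WT array of the same number, and the difference of 0.53 ± 0.30 SE (adjusted p = 0.448) passed with the block (± 0.11 SE; 0.0311). Hoxc6, expressed in thoracic and mammary tissue, had 9.29, 8.44 and 9.03 in WT and 9.95, 8.60 and 9.33 in KrP (difference 0.37 ± 0.34 SE; adjusted p = 0.668, or 0.131 with the block). Hoxc10 had 7.94, 7.04 and 7.68 against 8.20, 7.49 and 7.89, a difference of 0.31 ± 0.26 SE (adjusted p = 0.635 unpaired and 0.142 with the block).

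Hoxc8, used in the thorax, had 9.47, 8.82 and 9.35 in WT and 9.55, 9.46 and 9.50 in KrP, so that its KrP arrays were close together while WT 2 stood low (difference 0.29 ± 0.18 SE; adjusted p = 0.481). Hoxc5 had a difference of 0.33 and Hoxc4 of -0.13, and neither passed in either fit. Hoxc11, at the hindlimb end of the cluster, went against its neighbour Hoxc10. Its values were 7.26, 6.62 and 6.62 in WT and 6.18, 6.07 and 6.16 in KrP, lower on every KrP array and there no longer above background. The difference was -0.70 ± 0.18 SE (1.62-fold lower; adjusted p = 0.102, or 0.0337 with the block). Hoxc12 and Hoxc13 had differences of -0.11 and -0.17 (adjusted p = 0.746 and 0.572).

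The largest Hoxd differences lay in a run from Hoxd8 to Hoxd11. Hoxd9, which patterns the lumbar region and limb, had values of 6.75, 5.91 and 6.32 in WT and of 7.29, 6.81 and 6.97 in KrP. It was higher on every KrP array, by 0.70 ± 0.22 SE or 1.62-fold (adjusted p = 0.169, or 0.0163 with the block), and was above background only on the KrP side. Hoxd11, a factor of the sacral region and forearm, had 6.37, 6.30 and 6.38 in WT and 6.80, 6.69 and 6.74 in KrP, with little spread in either group. Its difference was 0.39 ± 0.10 SE (adjusted p = 0.0962, or 0.0573 with the block).

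Hoxd8 had 8.59, 8.22 and 8.38 in WT and 8.74, 8.67 and 8.63 in KrP (difference 0.28 ± 0.13 SE; adjusted p = 0.350, or 0.182 with the block). Hoxd10 had 6.64, 6.94 and 6.29 against 7.16, 6.84 and 6.85, where WT 2 overlapped the KrP arrays (difference 0.33 ± 0.18 SE; adjusted p = 0.429). Hoxd1, Hoxd3, Hoxd12 and Hoxd13 had differences between -0.24 and 0.03 (adjusted p from 0.470 to 0.955). Of these only Hoxd3 was above background in either group. The probe set shared by Hoxd4 and Hoxd3 had a difference of -0.42, with WT 1 to 3 at 7.66, 7.47 and 7.85 and KrP 1 to 3 at 7.53, 6.96 and 7.24.

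Paralogues with the same number differed in direction between clusters. In paralogue group 9, with the block, Hoxa9 fell while Hoxb9, Hoxc9 and Hoxd9 rose, at log2 differences of -0.55, 1.40, 0.53 and 0.70. In group 7 Hoxa7 fell (-0.64) and Hoxb7 rose (0.51), again with the block. In group 5 the differences were -0.93 for Hoxa5, 0.65 for Hoxb5 and 0.33 for Hoxc5, of which Hoxb5 passed with the block. In group 6 they were -0.48 for Hoxa6, 0.71 for Hoxb6 and 0.37 for Hoxc6, and in group 10 they were -0.55 for Hoxa10, 0.31 for Hoxc10 and 0.33 for Hoxd10. Group 8 has no Hoxa member, and Hoxb8, Hoxc8 and Hoxd8 had differences of 0.37, 0.29 and 0.28. The differences between paralogues were not tested.

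Promoter sequences, from 250 bases before to 50 bases after the annotated start, were given in RefSeq for 22 Hox genes (24 starts, GRCm38.p6). Those of Hoxa9 and Hoxd9 are shown because these paralogues went in opposite directions. Capitals mark CpG dinucleotides, the sites of DNA methylation in mammals, of which the Hoxa9 window has 4 and the Hoxd9 window 20, beside a median of 14.5 over the Hox starts and 7 over 32851 promoters. Among genes lower in mean in KrP, the counts were 29 for Hoxa5, 26 for Hoxa6, 9 for Hoxa7 and 21 and 12 for Hoxa10. Also lower in mean, by at most a small difference, were Hoxa2 (9), Hoxa3 (20), Hoxa13 (45), Hoxb1 (10) and Hoxc4 (9). The same holds for Hoxd3 (20), Hoxd12 (13) and Hoxd13 (37). Among genes higher in mean they were 13 for Hoxb8, 6 for Hoxd8, 22 for Hoxd10 and 4 and 25 for Hoxd11. Hoxb4 (14) and Hoxd1 (29) were slightly higher in mean. A relation of CpG count to direction was not tested. Hoxa9 lies on the minus strand at chr6:52227321-52227620 and Hoxd9 on the plus strand at chr2:74697513-74697812.
Hoxa9: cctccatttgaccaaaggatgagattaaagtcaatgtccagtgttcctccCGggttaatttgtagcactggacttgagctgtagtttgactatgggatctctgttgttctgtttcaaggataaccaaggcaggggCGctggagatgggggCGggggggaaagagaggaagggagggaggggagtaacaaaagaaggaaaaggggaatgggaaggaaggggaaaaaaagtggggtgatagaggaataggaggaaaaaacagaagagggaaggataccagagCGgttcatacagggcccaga
Hoxd9: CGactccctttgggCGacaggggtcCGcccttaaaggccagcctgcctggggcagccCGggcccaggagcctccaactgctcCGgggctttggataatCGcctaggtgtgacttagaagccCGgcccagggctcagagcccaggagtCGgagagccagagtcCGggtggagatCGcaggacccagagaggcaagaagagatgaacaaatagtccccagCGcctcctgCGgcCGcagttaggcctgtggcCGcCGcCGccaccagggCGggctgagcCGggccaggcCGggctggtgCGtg
The composite site of Hox proteins with their Pbx partners, searched as TGATNNAT on both strands, was in 4 of the 24 Hox windows (16.7%) and in 8.85% of all promoters. The windows with a match belonged to Hoxa2, Hoxb1, Hoxb8 and 1 of the Hoxd11 starts. A match is a description of the letters and not a bound site.

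The background guide gives which Hox genes stood above the level of olfactory receptor genes, and does not settle which of them the fibroblasts express. Of the 36 genes, 20 (55.6%) were above background on all 6 arrays, against 55.0% of all genes. These included Hoxb9, Hoxc6, Hoxc8, Hoxc9, Hoxc10 and Hoxd8, and with the 99th percentile as the limit the count was 4. A further 2 genes, Hoxa10 and Hoxc11, were above background in WT alone, and 4 genes, Hoxb8, Hoxd9, Hoxd10 and Hoxd11, in KrP alone. The other 10, Hoxa2, Hoxa3, Hoxa5, Hoxb7, Hoxb13, Hoxc5, Hoxc12, Hoxd1, Hoxd12 and Hoxd13, were above it in neither, while Hoxa13 and Hoxc13 were above it in both. Differences of genes near this level may be compressed on the log2 scale. Since RNA was taken from many cells, fewer cells that use a gene and less RNA in each cell cannot be told apart.

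The arrays numbered 2 stood apart over the Hox genes in both groups. With each gene centred on its mean, profiles over the 36 genes correlated by 0.71 between WT 1 and WT 3 and by 0.87 between KrP 1 and KrP 3, while WT 2 correlated by 0.09 with WT 1 and by 0.31 with WT 3, and KrP 2 correlated by -0.03 with KrP 1, by 0.12 with KrP 3 and by 0.16 with WT 2. These are descriptions over genes that share arrays and are not independent. The order of the arrays was shared as well. In all 6 genes from Hoxc4 to Hoxc10, array 1 was highest and array 2 lowest in each group, an order found in 11 of the 36 Hox genes (30.6%) and in 9.61% of all genes. The mean over Hoxc4 to Hoxc10 was 7.99, 7.28 and 7.81 in WT 1, 2 and 3 and 8.32, 7.56 and 8.04 in KrP 1, 2 and 3. The array numbered 2 was lower than the others of its group by more than the groups differed at any number.

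**Figure D3:**
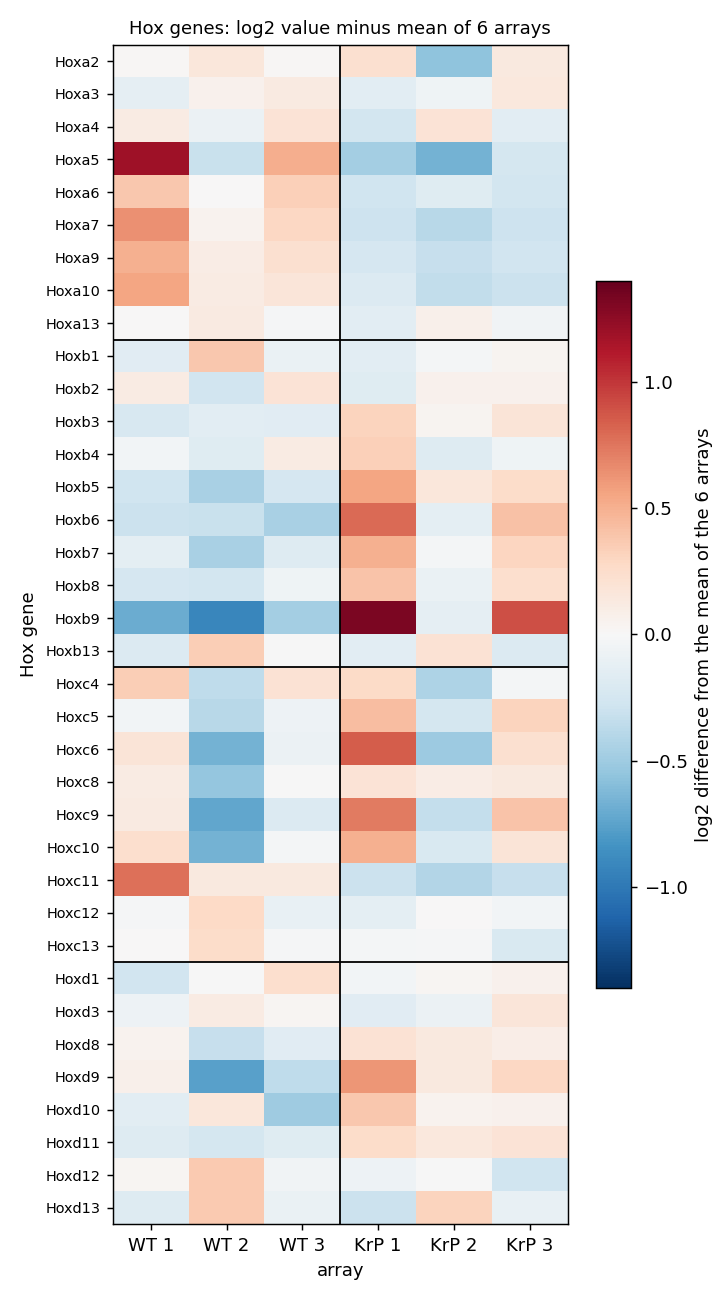
Log2 value of each of the 36 Hox genes on each array, minus the gene's mean over the 6 arrays, with red above and blue below it and lines between clusters and groups. The WT columns are red from Hoxa5 to Hoxa10, apart from Hoxa5 in WT 2, the columns of KrP 1 and KrP 3 are red from Hoxb5 to Hoxb9, and WT 2 and KrP 2 are blue from Hoxc4 to Hoxc10, apart from Hoxc8 in KrP 2.

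Without both arrays numbered 2, an alternative chosen after the data were seen, 33 of the 36 genes kept the sign of their difference. Limma then called 4 Hox genes, against 4.01% of all genes, namely Hoxb9 (difference 1.70, adjusted p = 0.00677), Hoxb6 (0.97, 0.0282), Hoxa5 (-1.21, 0.0382) and Hoxa6 (-0.62, 0.0463). Of the 9 genes called with the block on 6 arrays, Hoxb9 was among these, but this fit differs in having no block as well as fewer arrays. The other 8 kept their direction, with differences of -0.75 for Hoxa7, -0.61 for Hoxa9, -0.60 for Hoxa10, -0.77 for Hoxc11, 0.66 for Hoxb5, 0.56 for Hoxb7, 0.59 for Hoxc9 and 0.60 for Hoxd9. Without KrP 2 alone the called Hox genes were Hoxb9 (1.81, adjusted p = 0.00338), Hoxb6 (0.95, 0.0166) and Hoxb5 (0.73, 0.0396), against 5.03% of all genes. Without WT 2 alone it was Hoxa5 (-1.31, 0.0498), against 1.15% of all genes. With the lower 50% of genes by level left out, Hoxb5 passed (0.0467), against 4.94% of the genes left, and with weighted arrays 18 Hox genes passed, against 28.9%.

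Marker genes of other cell types differed between arrays too. Beside the counts in this paragraph, limma called 2.18% of all genes unpaired and 8.35% with the block. At an unadjusted p under 0.05 in limma, unpaired, there were 16.0% of all genes. The mean level of 12 keratinocyte and mammary epithelial markers was 7.28 in WT 2 and between 6.39 and 6.54 in the other arrays, with Epcam at 6.33 in WT 2 and at 4.89 to 5.21 elsewhere. In each group 6 of the 12 were above background, and limma called 0 of 12 (1 at an unadjusted p under 0.05). The mean of 9 fibroblast markers ranged from 11.51 to 12.11 in WT and from 11.91 to 12.44 in KrP, all 9 above background in both groups, and Pdgfra, which encodes the sorted CD140a, was at 13.23 and 13.47. None of the 9 passed unpaired (4 at an unadjusted p under 0.05 in limma), and Pdgfrb (0.43), Col1a1 (1.18) and Col1a2 (1.15) rose with the block. Of 8 endothelial markers Tek and Cldn5 fell (1.69-fold and 1.93-fold lower). Kdr fell with the block alone (2.66-fold lower, limma adjusted p = 0.0658 unpaired and 0.00158 with the block). Cdh5 had a difference of 0.54 (limma adjusted p = 0.304, unpaired). List means were 6.62 to 6.94 in WT and 6.43 to 6.64 in KrP, with 6 and 4 of the markers above background. Pecam1 (CD31), although used to sort cells out, was above background in both groups, at means of 6.73 in WT and 6.68 in KrP. Kit (CD117), from the blood cell list, was not above background in either group, at 6.23 and 6.18. Among 14 blood cell markers Csf1r rose 1.66-fold, Cd14 (0.55) rose and Cd3g (-0.46) fell with the block alone, 4 were above background in each group and Ptprc (CD45) was under it, at 4.85 and 4.65, with list means of 6.02 to 6.20 and 6.00 to 6.03. Of 8 smooth muscle and pericyte markers Cspg4 fell 2.14-fold, Acta2 rose 2.49-fold with the block alone (adjusted p = 0.154, or 0.0138) and Tagln had a difference of 0.84 (0.551), with list means of 7.40 to 7.85 and 7.52 to 8.08 and 6 above background in each group. The melanocyte and Schwann cell, skeletal muscle and adipocyte lists had no called member in either fit (unpaired, 1, 1 and 0 at an unadjusted p under 0.05). The part of these markers in the Hox differences was not tested, apart from the values without WT 2 given above.

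The genes beside the clusters were compared in the same way. Of the 40 measured genes that flank the clusters in RefSeq, 5 on each side, none passed limma unpaired (5 at an unadjusted p under 0.05) and 2 passed with the block, Skap2 beside Hoxa at 0.67 (adjusted p = 0.0294) and Atp5g2 beside Hoxc at 0.32 (0.0436), or 5% against 8.35% of all genes. Their median size of difference was 0.14, equal to that of all genes, and their groups did not overlap in 7 of 40 (17.5%, against 20.3% of all genes). Snx10 beside Hoxa (-0.53, no overlap) and Calcoco1 beside Hoxc (0.55) had differences as large as several called Hox genes (adjusted p = 0.183 and 0.259). Evx1 and Evx2, homeobox genes just beyond Hoxa13 and Hoxd13, had differences of -0.02 and -0.07 (adjusted p = 0.972 and 0.811). On the side of Gm53 away from Hoxb9, the differences were -0.14 for Gm11538, -0.09 for Hoxb13 and -0.05 for Ttll6.

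**Figure D4:**
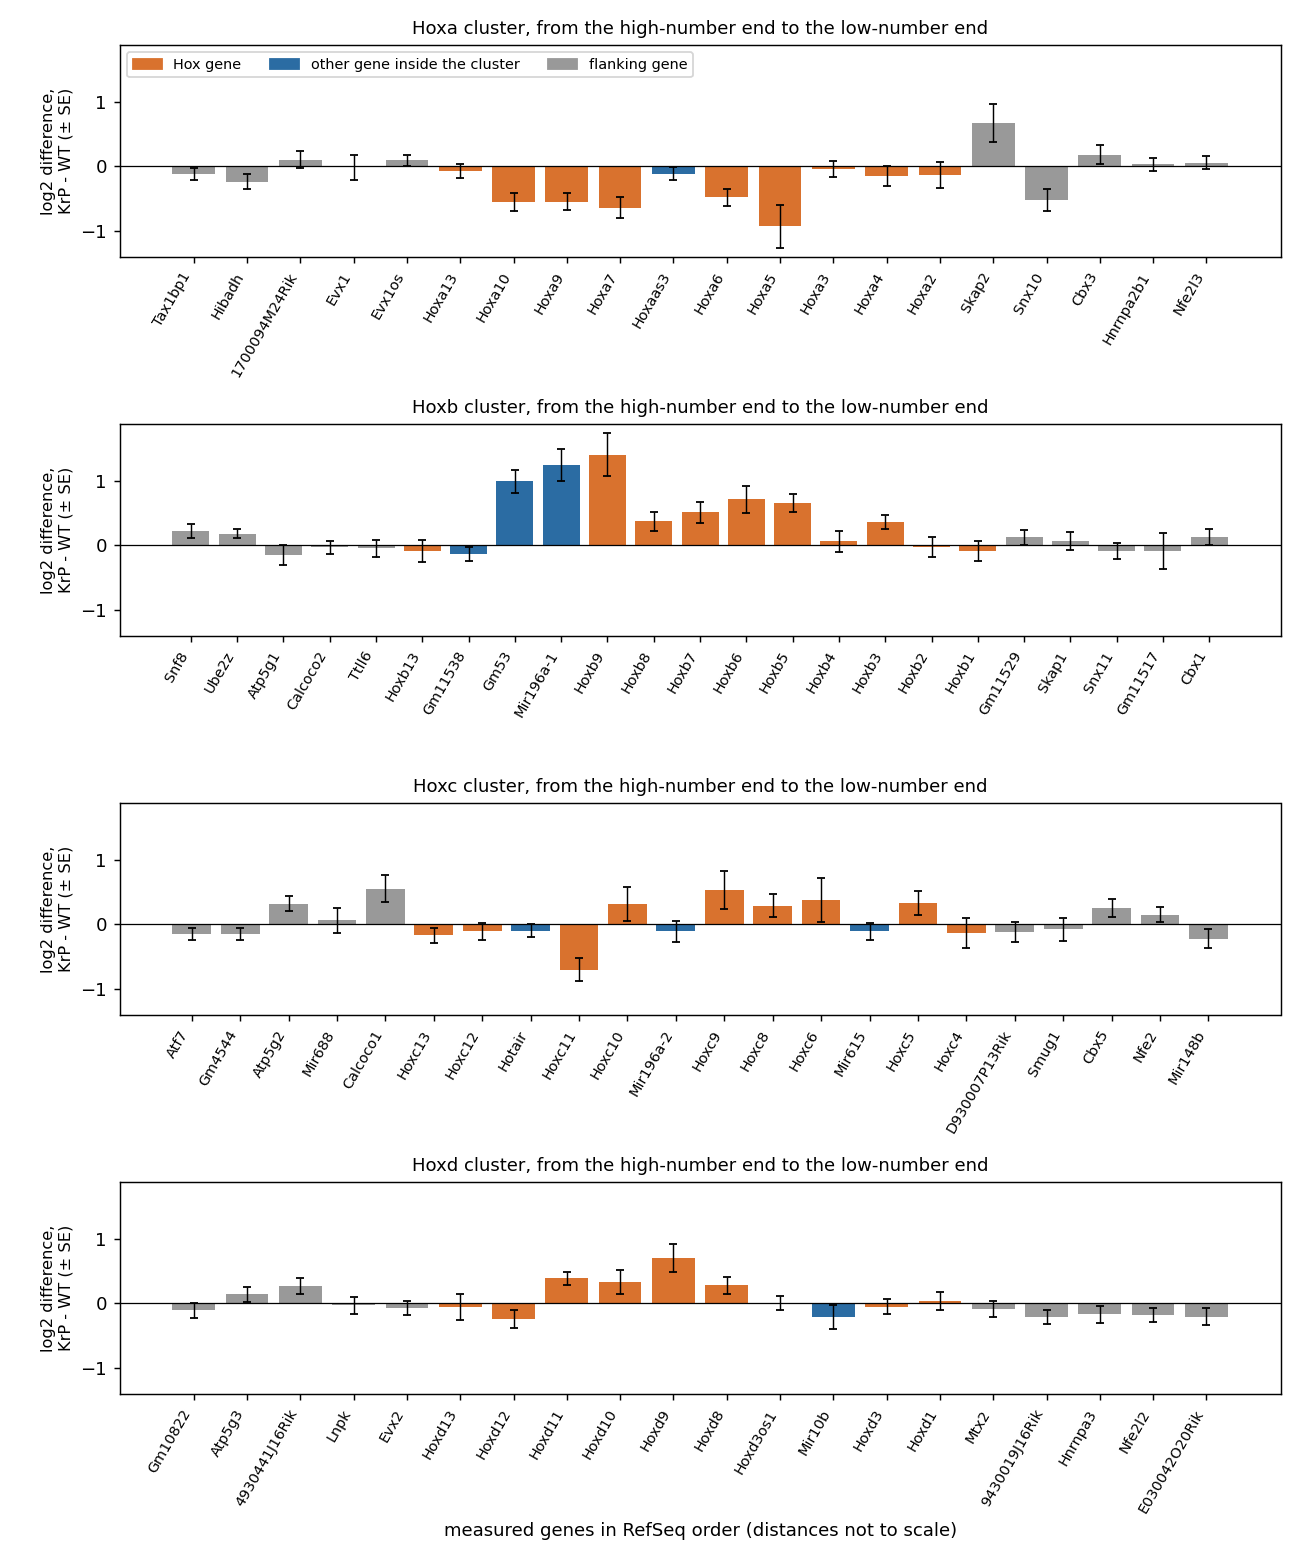
Log2 difference, KrP minus WT, with its standard error, for measured genes in RefSeq order along each cluster and 5 genes on either side, with Hox genes orange, other genes inside the clusters blue and flanking genes grey. Gm53 (0.99), Mir196a-1 (1.24) and Hoxb9 (1.40) have the tallest bars, and Skap2 (0.67) has the largest difference of a flanking gene.

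Genes related to Hox genes were read from 8 lists, which hold 115 different measured genes. Some lists hold cofactors and regulators of Hox genes. Others hold Even-skipped and ParaHox genes, non-coding genes of the clusters, other homeobox genes and other positional genes. Over all genes 16.0% had an unadjusted p under 0.05 and 8.35% passed with the block, against which the counts below stand. Of 9 TALE homeodomain cofactors, which bind DNA together with Hox proteins, none passed unpaired (3 at an unadjusted p under 0.05) and 2 rose with the block. Meis2 had values of 9.79, 9.10 and 9.46 in WT and of 10.46, 10.10 and 10.01 in KrP, all higher (difference 0.74 ± 0.20 SE; adjusted p = 0.113, or 0.0145 with the block). Pbx2 had a difference of 0.87 ± 0.34 SE (adjusted p = 0.257 unpaired and 0.0106 with the block) and was not above background on all arrays of either group. Meis1 had a difference of 0.40 (adjusted p = 0.475).

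Polycomb proteins keep silent Hox genes closed. Of 21 measured, Jarid2, which helps bring Polycomb repressive complex 2 to its targets, fell 2.43-fold, from 10.62, 10.97 and 10.67 in WT to 9.50, 9.65 and 9.27 in KrP (difference -1.28 ± 0.15 SE; adjusted p = 0.00609, or 0.00169 with the block). Its call held in each of the 16 alternatives, with adjusted p up to 0.0477. With the block, Mtf2 (-0.46) fell as well and Ezh1 (0.45) and Pcgf2 (0.50) rose, while Phf1 (0.51; adjusted p = 0.431) and the core members Ezh2, Eed and Suz12 did not pass in either fit. Of 11 Trithorax-type activators none passed unpaired (3 at an unadjusted p under 0.05), and with the block the histone demethylase Kdm6b fell (-1.0, adjusted p = 0.0113) and Men1 rose (0.54, 0.0190).

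Among 12 genes known to induce or restrict axial Hox expression none passed unpaired (2 at an unadjusted p under 0.05), and Gdf11 (0.55) and Mllt3 (0.71) rose with the block. The Cdx genes and the other ParaHox genes gave no call in either fit, in a list of 8 (0 at an unadjusted p under 0.05 unpaired), with the largest differences at Gsx2 (0.18), Gsx1 (0.17) and Pdx1 (-0.17). Of 33 other homeobox genes of dermis and limb Shox2 fell (difference -1.25; adjusted p = 0.00473) and so did Meox2 (-1.32; 0.0127, or 0.0650 without WT 3 and 0.0814 without KrP 3). In that list 11 of 33 had an unadjusted p under 0.05, and 1 rose and 5 fell with the block. Of 20 positional genes of limb and trunk 10 had an unadjusted p under 0.05, and 4 rose and 2 fell with the block. Among them Tbx3 rose (0.64; adjusted p = 0.00649), and En1, a ventral limb factor in both lists, and Tbx5, a forelimb factor, had the largest other differences at -1.18 (adjusted p = 0.104, or 0.00479 with the block) and 1.06 (0.161, or 0.00363 with the block). The median difference was -0.13 in the former list and 0.06 in the latter, beside 0.01 over all genes.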

How the data were processed

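Values were used as the authors deposited them, on a log2 scale with 1 value for each probe set on each array. The submitters' processing notes name RMA and Partek but give no version and no role, and a genome build is not given in the sources used here. Of 34390 probe sets, 23521 had 1 gene symbol in the platform annotation, 1814 several and 9055 none there. Of the 23521, 23328 were matched by gene ID to RefSeq (GRCm38.p6). For the 1082 genes with several probe sets, the one with the highest mean was taken, leaving 22180 genes. Arrays carry no read depth, so their number limits the precision.

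The fit used lmFit and eBayes with a trend (limma 3.58.1, R 4.3.3) for 3 against 3 arrays, with all genes kept and replicate numbers left out, and was tested on simulated data. Same-numbered samples deviated together from their group means, with correlations of 0.414, 0.350 and 0.120 across genes. Samples of different number gave -0.385 to 0.067, and the numbers were read as a pairing. No label states it. The members and lists were chosen with earlier results of these data known. All Hox genes may be named, and of each list the called members, the 2 with the largest difference, and Meis1 and Meis2. Other listed genes, the flanking genes and the markers were named after their values were seen. Alternatives changed the variance prior, weights, filter, normalisation, probe sets or samples. Plots used Python 3.11.15 and matplotlib 3.10.9.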

Additional observations from a re-analysis of the deposited data

How the results depend on the processing

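The count of Hox genes called by limma, 0 in the planned fit, was 9 with the replicate block (5 higher, 4 lower), 18 with weighted arrays (11 and 7), 1 without the lower 50% of genes (1 and 0) and 4 without WT 2 and KrP 2 (2 and 2). Leaving out 1 array gave 0 to 3 calls, 0 to 3 higher and 0 to 1 lower. The other settings gave 0. The count of called genes among the 115 different genes of the cofactor, regulator and other lists, 6 as planned (2.18% of all genes were called), was 23 with the block (8.35%), 46 with weighted arrays (28.9%), 11 without WT 2 and KrP 2 (4.01%), and 3 to 11 when 1 array was left out. The cluster medians kept their sign throughout. That of Hoxa was -0.55 without the lower 25% of genes, -0.60 without WT 2 and KrP 2 and -0.59 to -0.41 with 1 array left out. That of Hoxb was 0.68 and that of Hoxd 0.28 without the lower 50% of genes, where 14 Hox genes remained. That of Hoxc ranged from 0.05 (without WT 2 or KrP 1) to 0.39 with 1 array left out. The cause of these shifts was not tested, and under a filter the median is over fewer genes. The count above background was 4 instead of 20 at the 99th percentile. Of 552 Hox values under an alternative, 26 changed sign, in 10 genes whose planned differences were at most 0.13 in size. With no planned Hox call, no call could be reversed.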
